A study of Homo sapiens with 15 samples.

Results

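KPL4 cells that had spent 96 h in hormone-depleted, low-serum medium, the last 24 h of it with vehicle, were compared with the same cells left untreated in their maintenance medium. The comparison takes 6 of the 15 libraries of the series, 3 a group, picked by their sample labels and described across all genes. KPL4 is a human breast adenocarcinoma line with amplified HER2 (ERBB2), and in both groups the cells had their own estrogen receptor β (ERβ, gene ESR2) knocked out and carried exogenous ERβ. They are called add-back cells here. The untreated add-back group grew in Ham's F12 medium with 7% fetal bovine serum, 5 µg/mL insulin, 1 µg/mL hydrocortisone and HEPES. The vehicle group was moved for 72 h into a medium without phenol red that held 1% serum stripped with dextran-coated charcoal, and DMSO was then added to this medium for 24 h. Serum concentration, charcoal stripping, phenol red, DMSO, time in culture and any batch changed together, so their parts cannot be told apart. The protocol text is the same for all libraries and ties the depleted medium to ligand and DMSO treatments, so the medium of the untreated groups is read from it and not from a label of their own. Whether the depleted medium held insulin and hydrocortisone is not stated in the sources used here. The other libraries were control cells with their own ERβ, knockout cells, and add-back cells given 200 nM of the ERβ agonist LY500307 in the depleted medium, whose levels are set beside the vehicle group below with no test. The labels name neither the promoter that drove the exogenous ERβ nor how many clones were used.

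Charcoal removes steroids, thyroid hormones, retinoids and other small lipophilic molecules from serum, phenol red is a weak estrogen, and less serum also means fewer growth factors and less lipoprotein. Estrogen and glucocorticoid receptors are transcription factors switched on by such ligands. Serum is also a source of bone morphogenetic proteins (BMPs), which activate SMAD proteins and through them the ID genes, and of lipoprotein cholesterol, whose shortage releases the factor SREBP2 to switch on sterol synthesis genes.

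The libraries held 14966501 to 17736189 expected counts untreated and 15046862 to 19390378 with vehicle. Levels are given as CPM, counts scaled to library size with TMM factors, in the order of libraries 1, 2 and 3. Changes are log2 fold changes of vehicle over add-back ± SE, and a number after a gene name with no unit, or after "rose by", is on this log2 scale. ESR2 (ENSG00000140009, GRCh38 chromosome 14, 64084232 to 64338112, minus strand) was measured at 34.1, 33.8 and 30.6 CPM in the add-back libraries and at 41.7, 45.9 and 48.0 CPM with vehicle. The groups did not overlap (log2 fold change 0.46 ± 0.08, edgeR quasi-likelihood test, Benjamini-Hochberg adjusted p = 1.17e-04). The knockout libraries had 5.77, 3.04 and 4.41 CPM, the control libraries 6.44, 4.79 and 6.07 CPM and the LY500307 libraries 45.0, 44.2 and 42.4 CPM. SYNE2 overlaps this gene from the other strand, and whether strand was used in counting is not given in the sources used here. All 9 breast epithelial and HER2 markers were expressed, and ERBB2 stood at 5271 ± 77.5 and 6003 ± 239 CPM (mean ± SD, n = 3 each). Of 12 markers of blood, endothelial and stromal cells, only VWF and CDH5 passed the filter on low counts. Their summed level was 3.07 to 3.32 CPM untreated and 10.1 to 10.3 CPM with vehicle, while PDGFRB had 0 reads in all 6 libraries and PTPRC 11 and 17 reads over the 3 libraries of each group. The part of such cells in the results was not tested. Levels are shares of a library, and in bulk samples fewer cells of a kind and less RNA per cell cannot be told apart.

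Of 19516 genes tested, 9381 passed an adjusted p of 0.05, which is 48.1%. Higher with vehicle were 5160 genes (26.4%) and lower were 4221 (21.6%). Most of these differences were small, with 5906 called genes under 1.5-fold either way. At least 2-fold higher were 710 genes (3.64%) and at least 2-fold lower were 903 (4.63%). The 3 libraries of each group did not overlap for 55.8% of all genes tested, and 61.2% of the variance among the 6 libraries lay on 1 principal component. Protein-coding genes were called more often, 57.9% of 14012, with 4693 higher and 3418 lower. Counts of list members below are to be read against these shares, and those of protein-coding lists against the protein-coding share. The median log2 fold change over all genes was 0.01.

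**Figure D1:**
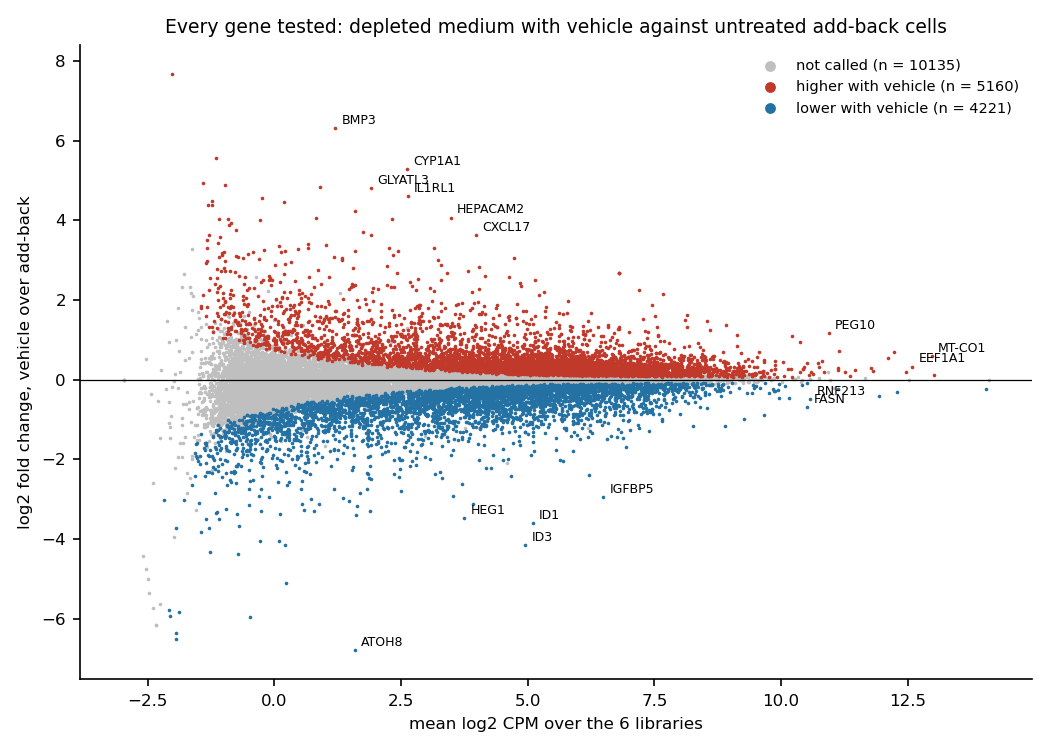
Log2 fold change of vehicle over add-back cells (vertical axis) against mean log2 CPM over the 6 libraries (horizontal axis), 1 point a gene. Red points were called higher (5160), blue points lower (4221) and grey points not called (10135). ATOH8, ID3, ID1 and HEG1 lie at the bottom and BMP3 and CYP1A1 at the top among genes whose mean log2 CPM is 1 or more.

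Falls were led by genes of the BMP response. ATOH8 (ENSG00000168874, GRCh38 chromosome 2, 85751344 to 85788066, plus strand), a basic helix-loop-helix factor, went from 26.2, 25.4 and 26.2 CPM untreated to 0.196, 0.267 and 0.204 CPM with vehicle. ID3 (ENSG00000117318, GRCh38 chromosome 1, 23557918 to 23559794, minus strand), one of the ID proteins that bind such factors and block them, went from 126, 130.2 and 129.8 to 7.45, 6.83 and 7.63 CPM. Its neighbour in function ID1 (ENSG00000125968, GRCh38 chromosome 20, 31605283 to 31606515, plus strand) went from 114, 116 and 123 to 10.8, 9.40 and 9.13 CPM. In each of these genes the 3 libraries of a group lay close together and far from the other group. The log2 fold changes were -6.79 ± 0.14, -4.15 ± 0.06 and -3.59 ± 0.07, with adjusted p-values of 2.19e-17, 1.06e-19 and 1.77e-17 (edgeR quasi-likelihood test). ID4 fell by the same measure to 4.57, 3.95 and 3.88 CPM from 29.6, 30.4 and 34.3 CPM, and SMAD6, an inhibitory SMAD that BMP signals switch on, fell to 11, 11.8 and 10.3 CPM from 56.2, 57.8 and 62.2 CPM.

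All 9 genes of the ID and BMP-SMAD list were tested and all 9 were lower, with a median log2 fold change of -2.41 against 0.01 over all genes. SMAD7, the other inhibitory SMAD, had a log2 fold change of -1.52 ± 0.17, and BAMBI, a decoy receptor, one of -0.80 ± 0.07. The smallest changes were those of ID2, at 53.6 ± 0.998 CPM untreated and 41.9 ± 0.320 CPM with vehicle (adjusted p = 4.75e-04), and of SMAD9, at 5.80 ± 0.622 and 4.47 ± 0.474 CPM (adjusted p = 0.0183). With offsets for GC content and length, described at the end and called the correction below, SMAD9 had a log2 fold change of -0.57 in place of -0.36. SMAD9 passed neither with DESeq2 nor without add-back library 3. The falls were thus unequal within the list, smallest in ID2 and SMAD9 and largest in ATOH8. In the LY500307 libraries, from the same medium, ID1 stood at 9.85, 9.91 and 9.92 CPM, ID3 at 7.24, 6.76 and 6.63 CPM and ATOH8 at 0.170, 0.302 and 0.293 CPM. Against this, the ligand gene BMP3 (ENSG00000152785, GRCh38 chromosome 4, 81030965 to 81057531, plus strand) had the largest rise among the named protein-coding genes, from 0.0647, 0.221 and 0.319 CPM to 17.8, 16.3 and 16.3 CPM (log2 fold change 6.32 ± 0.24, adjusted p = 7.58e-14). BMP3 is an atypical member of its family that can antagonise other BMPs.

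**Figure D2:**
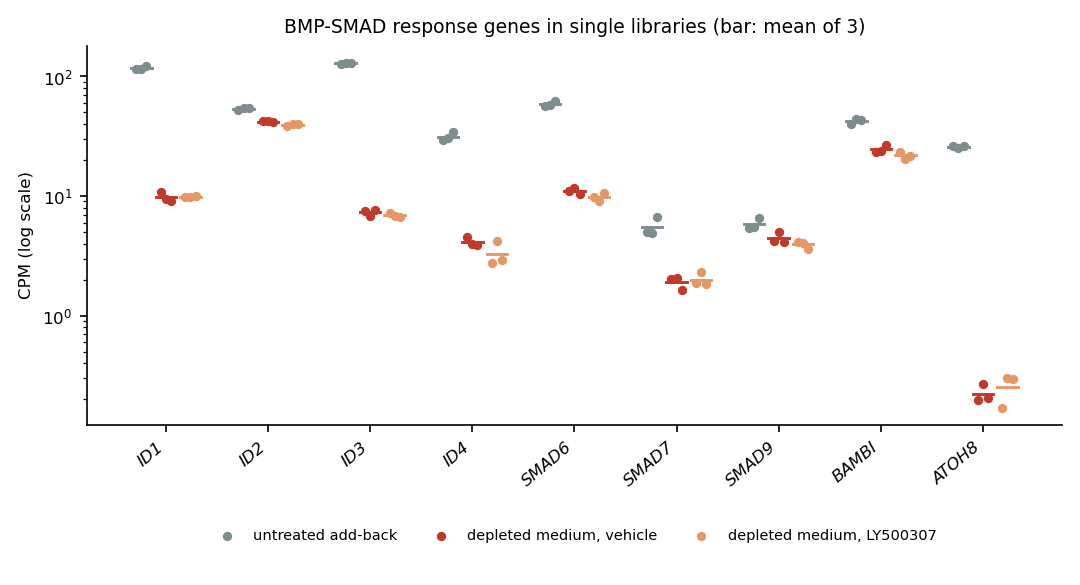
CPM on a log scale (vertical axis) of the 9 ID and BMP-SMAD response genes in single libraries, with untreated add-back cells in grey, vehicle in red and LY500307 in orange, and a bar at the mean of 3. ID1, ID3, ID4, SMAD6 and ATOH8 show the widest gaps between grey and red, while ID2 and SMAD9 differ little.

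The other large falls were of genes with varied roles. IGFBP5, a secreted binding protein of insulin-like growth factors, fell from 243, 246 and 255 CPM to 32.6, 33.4 and 30.8 CPM (log2 fold change -2.94 ± 0.04, adjusted p = 1.06e-19). HEG1, a mucin-like membrane protein, fell from 42.5, 42.6 and 47.5 to 3.59, 4.11 and 4.16 CPM. FGFR3, a fibroblast growth factor receptor, fell from 14.4, 14.4 and 14.2 to 2.09, 1.98 and 2.18 CPM. No library of one group reached the other group in these 3 genes. The remaining protein-coding genes among the 15 largest falls were a gene known only by its identifier (ENSG00000267059, log2 fold change -3.18, with 0 CPM in vehicle library 2), CLIC5 (-3.04), PRRT1B (-2.97), TNS4 (-2.84), PCDH11X (-2.73), the tight junction gene CLDN3 (-2.62), SAMD11 (-2.49) and ST3GAL5 (-2.47), a ganglioside synthase.

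The 15 largest rises were of genes with varied roles. After BMP3 came CYP1A1 (log2 fold change 5.29), described below, GLYATL3 (4.80), a glycine acyltransferase-like gene, and IL1RL1 (4.61), the receptor of interleukin 33. IL1RL1 was measured at 0.971, 1.16 and 1.47 CPM untreated and at 26.3, 28.8 and 33.1 CPM with vehicle. CXCL17, a mucosal chemokine, went from 5.31, 5.19 and 2.88 to 57.8, 52.7 and 56 CPM. HEPACAM2 went from 2.91, 2.76 and 2.30 to 47.9, 45.2 and 41.5 CPM. In these 3 genes the lowest vehicle library was far above the highest add-back library. The chemokine receptor CXCR4 (3.23), the interferon-induced GTPases GBP2 (3.62) and GBP1 (3.31), the glucose transporter SLC5A1 (3.38), the fatty acid hydroxylase CYP4F8 (3.72), the glycosyltransferases ST6GALNAC3 (4.02) and GALNT12 (3.31), PRUNE2 (3.23) and the protease ADAMTS15 (3.13) made up the rest of the 15 largest rises.

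In CPM, the largest rise among nuclear genes was that of PEG10, an imprinted gene derived from a retrotransposon, from 1280, 1295 and 1343 CPM to 3009, 3058 and 2808 CPM (log2 fold change 1.18 ± 0.03, adjusted p = 8.60e-16). EEF1A1, a translation elongation factor, rose from 5487 to 6899 CPM (0.33, and 0.17 with the correction). The largest CPM falls were those of the structural RNAs RN7SL2 and RPPH1, of MT-ND2, of the fatty acid synthase gene FASN and of RNF213, a ubiquitin ligase that went from 1851, 1837 and 1756 to 1262, 1270 and 1331 CPM. RN7SL2 has near-identical copies, so its counts are uncertain, and RN7SL2 and RPPH1 turned to log2 fold changes of 0.38 and 0.35 once a trend on GC content and length was removed.

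Estrogen-responsive genes were mostly lower. Of 18 tested, 11 were lower and 6 higher, with a median log2 fold change of -0.67. CA12, a carbonic anhydrase, was measured at 114, 124 and 122 CPM untreated and at 44.4, 44.3 and 44.9 CPM with vehicle (log2 fold change -1.43 ± 0.06, adjusted p = 2.17e-13). The classic target GREB1 was at 13.8, 14.9 and 10.3 CPM against 3.33, 3.63 and 4.09 CPM, and TFF1, a secreted trefoil peptide, at 2.20, 2.04 and 2.68 against 0.718, 0.641 and 0.341 CPM. All vehicle libraries of these 3 genes lay below all add-back libraries. GREB1 and TFF1 were chosen after their values were seen (log2 fold changes -1.82 ± 0.15 and -1.99 ± 0.29, adjusted p = 9.17e-09 and 1.17e-05). In the LY500307 libraries CA12 was at 118, 131 and 127 CPM, GREB1 at 21.8, 21.3 and 22.7 CPM and TFF1 at 4.13, 4.23 and 3.76 CPM. IGFBP4, a further binding protein of insulin-like growth factors that estrogen raises, stood at 20.5 CPM untreated, 8.26 CPM with vehicle and 21.6 CPM with LY500307. Its log2 fold change was -1.31 as tested and -0.81 with the correction.

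Other members fell less, and some rose. Cyclin D1 (CCND1) fell from 1068, 1095 and 1133 to 612, 596 and 582 CPM and MYC from 98.5, 98.9 and 98.4 to 55.6, 56.6 and 61.5 CPM, both of which many growth signals also control. STC2, a stanniocalcin, and NHERF1, a scaffold protein, fell with log2 fold changes of -0.62 and -0.71. Among the 6 higher genes were TFF3 (2.06 ± 0.22), the receptor tyrosine kinase RET (1.57 ± 0.21) and the secretory-pathway factor XBP1 (0.45 ± 0.04). The lysosomal protease gene CTSD, also in this list, was lower as tested (-0.69) but had a log2 fold change of -0.09 (adjusted p = 0.0822) once a trend on GC content and length was removed. NHERF1 shrank to -0.28 and XBP1 to 0.26 in the same way.

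Glucocorticoid receptor targets were also lower more often than higher, 10 against 4 of 17 tested, with a median log2 fold change of -0.38. KLF9, a zinc finger factor, was at 13.0, 15 and 14.3 CPM untreated and 3.46, 3.20 and 3.00 CPM with vehicle (log2 fold change -2.13 ± 0.11, adjusted p = 8.85e-12). PER1, a clock gene with glucocorticoid elements, was at 11.4, 12.5 and 10.5 against 1.44, 2.40 and 2.79 CPM (log2 fold change -2.37 ± 0.16, adjusted p = 4.92e-10). Every vehicle library lay below every add-back library in both genes. SCNN1A, a subunit of the epithelial sodium channel, fell from 231, 236 and 229 to 124, 132 and 141 CPM. FKBP5, a cochaperone of the receptor and a widely used marker of its activity, fell less, from 44.2, 49.4 and 47.0 to 36.5, 37.7 and 33.6 CPM (log2 fold change -0.38 ± 0.06, and -0.61 with the correction). TSC22D3 and DUSP1 were lower as well (-0.42 ± 0.13 and -0.79 ± 0.14). The 4 higher members were SGK1 (1.09), PDK4 (0.91), CRISPLD2 (0.48) and MAOA (0.31). MAOA did not pass after the GC content and length correction, under which PER1 went to -1.88. Circadian clock genes gave 3 higher and 5 lower of 17, with DBP, an output gene of the clock, at 6.87 ± 0.365 CPM untreated and 2.35 ± 0.353 CPM with vehicle.

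Targets of the aryl hydrocarbon receptor, a factor that responds to flat aromatic ligands, held the largest relative rises of any receptor list. CYP1A1 (ENSG00000140465, GRCh38 chromosome 15, 74719542 to 74725610, minus strand), a monooxygenase, was measured at 1.10, 1.10 and 0.575 CPM untreated and at 37.2, 40.2 and 32.8 CPM with vehicle (log2 fold change 5.29 ± 0.18, adjusted p = 2.68e-14). ALDH3A1, an aldehyde dehydrogenase, was at 12.8, 13.3 and 12.3 against 64.9, 62.5 and 70.2 CPM (2.36 ± 0.06, adjusted p = 2.95e-16). CYP1B1, which hydroxylates estradiol, was at 239, 248 and 265 against 589, 602 and 579 CPM (1.24 ± 0.05, adjusted p = 1.15e-13). Every vehicle library exceeded every add-back library in these genes. The 4 genes called higher of 7 tested included UGT1A6 (0.35), which shares exons with the other UGT1A genes, and the other 3 did not pass. With the correction 4 were higher, UGT1A6 by 0.18, and 2 lower. The list median was 1.24.

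**Figure D3:**
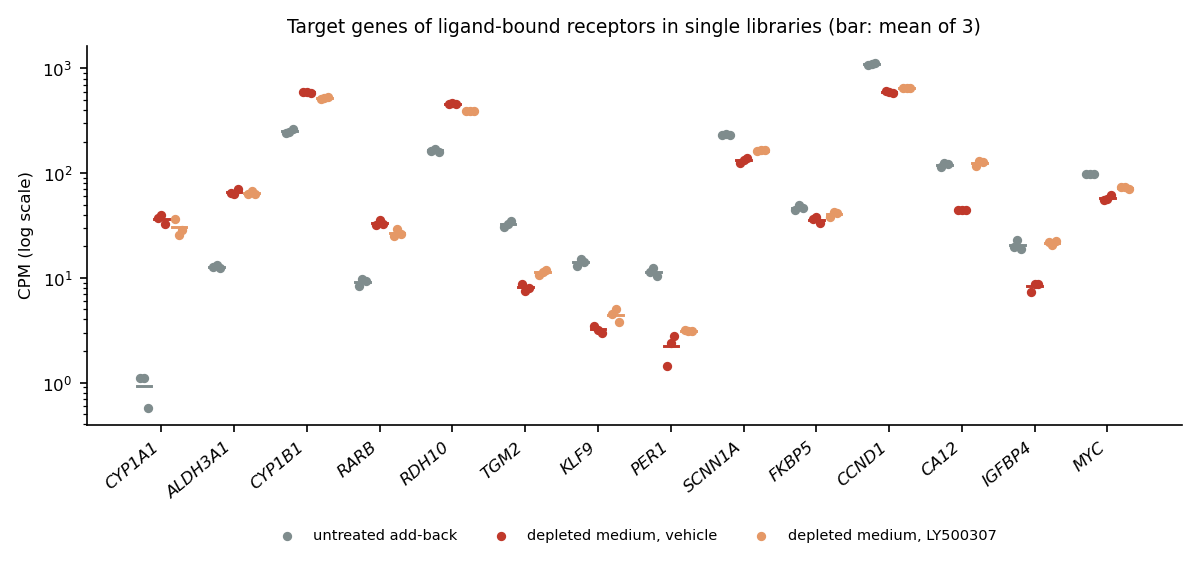
CPM on a log scale (vertical axis) of target genes of ligand-bound receptors in single libraries, with untreated add-back cells in grey, vehicle in red and LY500307 in orange, and a bar at the mean of 3. CYP1A1, ALDH3A1, CYP1B1, RARB and RDH10 were higher with vehicle than untreated, and the other 9 genes lower. CA12 and IGFBP4 lay near the untreated level with LY500307.

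Retinoic acid-responsive genes split, with 3 higher and 6 lower of 12 tested. RARB, a retinoic acid receptor gene, was at 8.35, 9.83 and 9.26 CPM untreated and 32.1, 35.5 and 32.4 CPM with vehicle. RDH10, which oxidises retinol, was at 162, 172 and 160 against 461, 464 and 460.2 CPM. TGM2, a transglutaminase, moved the other way, from 30.5, 32.5 and 34.9 to 8.82, 7.53 and 7.97 CPM. The log2 fold changes were 1.86 ± 0.09, 1.49 ± 0.04 and -2.02 ± 0.08, and no groups overlapped. The vitamin A transporter gene STRA6 fell (-0.63, and -0.25 with the correction) and RARRES1 rose (0.58). Androgen-responsive genes gave 4 higher and 2 lower of 10 (4 and 4 without add-back library 3 or vehicle library 2), with NDRG1, which hypoxia also raises, at 43.6 ± 3.02 CPM untreated and 122 ± 5.54 CPM with vehicle.

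Genes held down by insulin signalling through FOXO factors were higher more often than lower, 11 against 7 of 21, with a median log2 fold change of 0.41. FBXO32, a ubiquitin ligase subunit, rose from 26.4, 28.1 and 28.0 to 82.7, 89.8 and 90.1 CPM (log2 fold change 1.67 ± 0.05, adjusted p = 5.39e-15). CCNG2, an atypical cyclin of quiescent cells, rose from 30.1, 31.8 and 29.3 to 79.5, 84.1 and 72.9 CPM. TXNIP, an inhibitor of glucose uptake, rose from 41.4, 43.7 and 37.4 to 84.7, 90.6 and 82.7 CPM. All 3 rose at least 2-fold as tested, with no overlap between the groups, but TXNIP was at 0.89 with the correction, under 2-fold. The CDK inhibitor gene CDKN1B rose from 80.7 to 127 CPM and the insulin receptor gene INSR from 77.1 to 95.8 CPM (0.31, and 0.19 with the correction). Against the list, IRS1, an adaptor of the insulin and IGF1 receptors, fell from 29.7, 31.3 and 31.1 to 15.5, 16.7 and 17.9 CPM, and IGF1R fell as well (log2 fold change -0.24 ± 0.04). In the insulin-like growth factor system 2 of 12 were higher and 5 lower, with IGFBP5, IGFBP4 and IGF2 the largest falls. IGF2 was low in both groups, at 2.07, 0.884 and 1.34 CPM and 0.196, 0.160 and 0.273 CPM.

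Of 12 ERBB receptor and ligand genes tested, 8 were higher and 3 lower, with a median log2 fold change of 0.52. Among the ligands BTC rose from 5.82, 5.63 and 7.47 to 17.2, 16.7 and 15.7 CPM and NRG4 from 8.09, 7.57 and 8.88 to 17.8, 17.1 and 15.9 CPM, both with no overlap. EGF (0.70) and AREG (0.76) rose less, and EREG, with 12 reads untreated and 38 with vehicle, did not pass without add-back library 3, vehicle library 1 or vehicle library 3. Of the receptors, EGFR rose (0.62 ± 0.05), the amplified ERBB2 rose by a little (0.19 ± 0.03) and ERBB4 fell (-1.11 ± 0.11). The 3 lower genes were ERBB4, NRG1 (-0.61) and ERBB3 (-0.10), and the ERBB3 libraries of the groups overlapped. With the correction ERBB2 had a log2 fold change of 0.30 and ERBB3 of -0.19.

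Immediate-early genes, which growth factors switch on within minutes, gave 10 lower and 4 higher of 23, with a median of -0.33. JUNB, an AP-1 subunit, fell from 21.6, 19.4 and 19.0 CPM to 4.51, 2.83 and 4.50 CPM (log2 fold change -2.36 ± 0.17, adjusted p = 1.67e-09), and IER2 fell from 31.2, 28.7 and 26.7 to 15.3, 15.9 and 16.9 CPM. The 4 higher were NR4A2 (0.95), FOSL1 (0.92), MCL1 (0.35) and FOSL2 (0.31). With the correction JUNB went from -2.36 to -1.67, IER2 from -0.85 to -0.43 and MCL1 to 0.17, while FOSL1 went to 1.25. A list of feedback and other genes tied to the ERK kinase pathway had 9 higher and 4 lower of 16. Its summed level was lower with vehicle, at a mean of 1259 CPM against 1552 CPM untreated. CCND1, a member of the list, fell by more CPM than this sum did, so the other members together were higher with vehicle. DUSP6, a phosphatase of ERK, rose from 5.11, 6.24 and 4.60 to 17.8, 17.9 and 17.0 CPM, and DUSP4, a related phosphatase, from 143, 146 and 129 to 283, 266 and 266 CPM. The ephrin receptors of this list split, with EPHA4 at 4.25 ± 0.240 and 16.7 ± 0.988 CPM and EPHA2 at 48.8 ± 2.71 and 25.1 ± 2.92 CPM untreated and with vehicle. The CCND1 levels are given further above, with the estrogen-responsive genes.

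Genes of cholesterol synthesis and uptake were higher with vehicle: 20 of 25 tested, with 1 lower and a median log2 fold change of 0.44. STARD4, a sterol transfer protein, was measured at 2.98, 2.65 and 3.07 CPM untreated and 17.1, 17.0 and 16.4 CPM with vehicle (log2 fold change 2.54 ± 0.11, adjusted p = 4.86e-13). HMGCS1, which starts the mevalonate pathway, was at 65.7, 71.6 and 73.0 against 152, 152 and 140.5 CPM (1.08 ± 0.04, adjusted p = 1.42e-13). SQLE, squalene epoxidase, was at 119, 133 and 126 against 233, 228 and 218 CPM (0.84 ± 0.04). Only STARD4 and HMGCS1 passed 2-fold as tested, and the groups did not overlap in any of these 3. With the correction STARD4 was at 2.35 and HMGCS1 at 0.86, under 2-fold. INSIG1, which holds SREBP factors back when sterols are plentiful, rose by 0.68 ± 0.04. The single lower gene was TM7SF2 (-0.31), which was higher (0.32) after the correction for GC content and length. With that correction 23 of 25 were higher and none lower.

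SREBP2 acts together with NF-Y, a factor that binds the CCAAT box. CCAAT on either strand was found in the promoter windows (250 bases before to 50 after the start, RefSeq, GRCh38.p14) of 15 of the 18 cholesterol genes that had a window, or 83.3%, against 35.7% of all 27305 windows. Of all tested genes with a window, 32.7% of those with CCAAT and 32.1% of those without were called higher. TCACNCCAC, one form of the sterol element, was in 1 of the 18 windows and in 1.15% of all. The windows of the 2 genes with more than 2-fold higher levels as tested are printed on the gene's strand. CCAAT, or its reverse complement ATTGG, is in capitals, to show the paired boxes upstream of each start. The HMGCS1 window is chr5:43313363-43313662, minus strand, and the STARD4 window chr5:111512486-111512785, minus strand.
HMGCS1: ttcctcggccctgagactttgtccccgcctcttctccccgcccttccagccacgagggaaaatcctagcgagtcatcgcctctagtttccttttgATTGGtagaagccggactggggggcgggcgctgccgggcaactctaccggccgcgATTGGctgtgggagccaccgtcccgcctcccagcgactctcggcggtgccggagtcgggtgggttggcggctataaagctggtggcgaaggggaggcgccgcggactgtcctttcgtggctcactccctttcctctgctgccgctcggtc
STARD4: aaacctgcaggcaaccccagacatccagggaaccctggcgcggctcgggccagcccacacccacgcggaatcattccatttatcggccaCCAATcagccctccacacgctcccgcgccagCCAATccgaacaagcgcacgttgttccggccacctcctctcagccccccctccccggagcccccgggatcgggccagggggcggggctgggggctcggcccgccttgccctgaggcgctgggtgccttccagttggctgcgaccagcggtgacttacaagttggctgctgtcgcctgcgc

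Fatty acid synthesis genes gave 12 higher and 3 lower of 17, with a median of 0.24, and they did not move as a block. SCD, the Δ9 desaturase, rose from 805, 839.9 and 786 to 1798, 1735 and 1640 CPM (log2 fold change 1.09 ± 0.03, adjusted p = 6.75e-15). ELOVL6 and FADS2, an elongase and a desaturase, rose by 0.86 ± 0.04 and 0.77 ± 0.04, and LPIN1, a phosphatidate phosphatase, by 1.04 ± 0.05. FASN, the synthase itself, was at 1934, 2012 and 1670 CPM untreated and 1107, 974 and 1398 CPM with vehicle, a wider spread within groups than in the genes above, with vehicle library 3 nearest to the add-back libraries. Its log2 fold change was -0.69 ± 0.12 as tested (adjusted p = 6.78e-05) and -0.03 (adjusted p = 0.735) with the GC content and length correction. SREBF1, which encodes SREBP1, was likewise lower as tested (-0.41) and not with the correction (0.08, adjusted p = 0.162), under which the list had 9 higher and 1 lower. Genes of fatty acid oxidation and PPAR targets were higher in 9 of 15 and lower in 1, which fell at least 2-fold. The higher count was 7 with DESeq2, RLE or upper-quartile factors. Among the higher were ACSL1 (0.92) and CPT2 (0.53, and 0.31 with the correction).

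Interferon-stimulated genes were higher in 21 of 30 tested and lower in 4, with a median log2 fold change of 0.78. SAMD9L, an antiviral and growth-restraining factor, was measured at 6.79, 7.40 and 6.39 CPM untreated and 35.1, 29.4 and 30.2 CPM with vehicle (log2 fold change 2.20 ± 0.10, adjusted p = 8.02e-13). OAS1, a sensor of double-stranded RNA, was at 14.9, 17.0 and 15.7 against 44.1, 43.0 and 52.4 CPM (1.55 ± 0.08, adjusted p = 1.02e-11). RIGI, a sensor of viral RNA, was at 28.0, 27.8 and 28.9 against 67.7, 59.9 and 59.9 CPM (1.15 ± 0.06, adjusted p = 1.42e-11). No group overlapped in these genes. The largest fold was that of IFI44, from a low base of 9 reads in the 3 add-back libraries to 85 with vehicle (3.22 ± 0.44). IFIT3 went from 1.62, 1.82 and 2.43 to 5.09, 4.32 and 5.18 CPM and GBP1, which is outside the list and among the 15 largest rises, from 2.65, 3.15 and 2.49 to 24.4, 31.4 and 26.8 CPM.

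The 4 lower members were HERC5 (-1.41), IRF7 (-1.03), ISG15 (-0.91) and HERC6 (-0.34). ISG15, a ubiquitin-like modifier, and HERC5, its ligase, are themselves among the most used interferon markers. ISG15 was at 7.38, 8.12 and 7.09 CPM untreated and 4.25, 3.26 and 4.63 CPM with vehicle. After the correction for GC content and length ISG15 and IRF7 did not pass (-0.23 and -0.22), while HERC5 stayed lower (-1.59). In the LY500307 libraries ISG15 was at 7.75, 6.64 and 6.51 CPM and SAMD9L at 25.9, 29.1 and 31.2 CPM.

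Promoters of interferon-stimulated genes often hold the interferon-stimulated response element. Its core, TTTC then any 2 bases then TTTC on either strand, was in 16 of the 25 list windows, or 64.0%, and in 3.65% of all windows. Of all tested genes with this motif 34.3% were called higher, against 32.3% of those without. The motif was in the windows of ISG15 and HERC5, which fell, as well as in those of genes that rose, and SAMD9L, with a large rise, had none in its window. The windows of 3 genes that rose are printed with the motif in capitals to show how its place and number differ between them. IFIT3 is at chr10:89327747-89328046, plus strand, IFI44 at chr1:78649539-78649838, plus strand and GBP1 at chr1:89065159-89065458, minus strand.
IFIT3: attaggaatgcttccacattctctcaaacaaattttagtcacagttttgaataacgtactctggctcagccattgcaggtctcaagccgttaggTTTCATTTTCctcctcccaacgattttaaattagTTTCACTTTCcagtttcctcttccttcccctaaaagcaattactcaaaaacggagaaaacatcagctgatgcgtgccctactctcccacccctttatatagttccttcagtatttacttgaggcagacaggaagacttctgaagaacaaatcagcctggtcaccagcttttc
IFI44: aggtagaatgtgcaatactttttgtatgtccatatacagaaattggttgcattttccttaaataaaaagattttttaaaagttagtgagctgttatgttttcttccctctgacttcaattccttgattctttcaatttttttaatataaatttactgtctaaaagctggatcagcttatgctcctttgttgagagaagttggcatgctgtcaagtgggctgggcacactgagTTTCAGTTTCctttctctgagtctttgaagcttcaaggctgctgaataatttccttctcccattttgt
GBP1: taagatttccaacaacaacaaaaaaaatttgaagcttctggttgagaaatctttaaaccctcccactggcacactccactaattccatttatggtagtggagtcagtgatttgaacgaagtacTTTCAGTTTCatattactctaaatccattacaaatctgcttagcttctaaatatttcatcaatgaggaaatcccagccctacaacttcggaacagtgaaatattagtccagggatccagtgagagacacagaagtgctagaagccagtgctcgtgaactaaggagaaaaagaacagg

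Antigen presentation genes moved the same way, with 12 of 17 higher, none lower and a median of 0.37. The higher count was 9 with DESeq2, and upper-quartile factors gave 9 higher and 1 lower. A fit of the 6 libraries alone gave 8 of 15 higher. B2M, the light chain of class I molecules, rose from 230.5, 245 and 236 to 444, 476 and 437 CPM (log2 fold change 0.93 ± 0.05, adjusted p = 1.44e-11). NLRC5, the class I transactivator, rose from 3.82, 3.87 and 4.73 to 13.4, 11.2 and 12.2 CPM. TAPBP, the peptide-loading chaperone tapasin, and HLA-E rose by 0.37 ± 0.04 and 0.38 ± 0.05, while HLA-B was at 0.971, 0.442 and 1.02 against 2.22, 3.42 and 2.52 CPM. HLA genes are polymorphic and alike, so their counts are uncertain. HLA-DRA, a class II chain, had 6 reads untreated and 33 with vehicle.

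NF-kB targets and cytokines were higher in 11 of 13 tested, with 1 lower and a median of 0.97. LCN2, the iron-carrier lipocalin, was measured at 96.5, 97.8 and 93.0 CPM untreated and 419.6, 413 and 446 CPM with vehicle (log2 fold change 2.15 ± 0.05, adjusted p = 4.81e-17). The neutrophil chemokine CXCL8 was at 1.68, 1.93 and 2.81 against 10.2, 11.8 and 10.3 CPM (2.34 ± 0.15, adjusted p = 3.27e-10). ICAM1, an adhesion molecule, was at 8.54, 9.50 and 8.69 against 17.2, 17.6 and 17.8 CPM. In all 3 genes every vehicle library lay above every add-back library. CXCL10 had 3 reads over the 3 add-back libraries and 55 with vehicle, and CCL20 5 and 45 reads. NFKB1, a subunit of the factor, rose by 0.72 ± 0.07, and its inhibitor NFKBIA, also a glucocorticoid target, was the 1 member that fell (-0.39 ± 0.04). Of the 27 genes on the list 14 did not pass the filter on low counts. CXCL10 and CCL20 did not reach this filter in the add-back libraries and were tested through groups where they were higher. Such genes could be called higher but hardly lower, so the count and the median lean upwards. The same holds for IFI44 and HLA-DRA in the lists above. With no low-count filter 12 of 26 were higher and 1 lower. An NF-kB site, GGG then any 2 bases then TTTCC on either strand, was in 12 of 22 list windows (54.5%) and in 1.92% of all. These list windows include those of members that did not pass the filter. Of all tested genes with this site 34.9% were called higher, against 32.3% of those without. NFKBIA, which fell, had the site in its window, while CXCL8 and CXCL10, which rose, had none of this form.

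**Figure D4:**
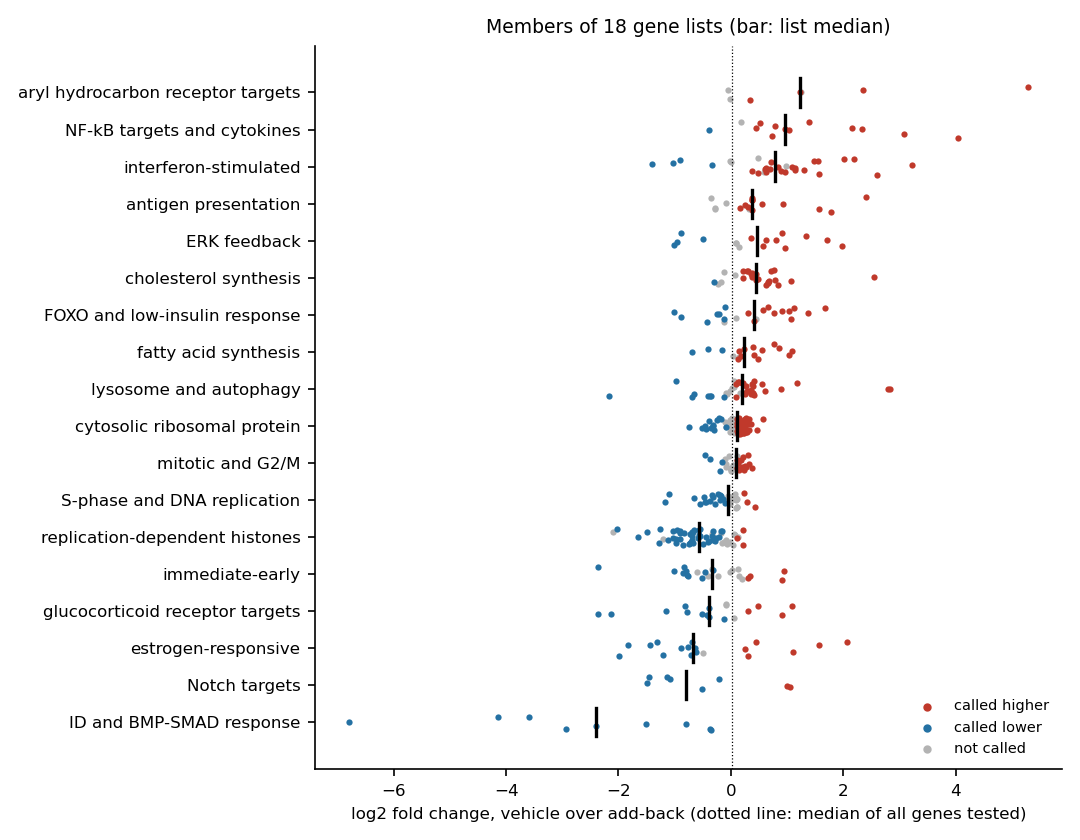
Log2 fold change of vehicle over add-back cells (horizontal axis) for each tested member of 18 gene lists, 1 point a gene, red where called higher, blue where called lower and grey where not called. The black bar is the list median and the dotted line the median of all genes tested. The ID and BMP-SMAD list lies wholly to the left, and the aryl hydrocarbon receptor, NF-kB and interferon lists have the medians farthest to the right.

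S-phase and DNA replication genes gave 17 lower and 3 higher of 38, with a median of -0.05. CDT1, a licensing factor, was at 45.9, 44.7 and 39.0 CPM untreated and 16.9, 17.6 and 23.2 CPM with vehicle, and POLD1, a polymerase subunit, at 49.6, 51.5 and 42.7 against 20.4, 19.9 and 27.0 CPM. E2F1, the factor that drives this program, fell from 33.4, 35.9 and 37.4 to 21.3, 22.4 and 24.0 CPM, and so did POLE (log2 fold change -0.54 ± 0.04). RRM2, which makes deoxynucleotides, went up from 269.5, 280.3 and 292 to 379.8, 385 and 370.1 CPM. The groups did not overlap in these genes, but in CDT1 and POLD1 vehicle library 3 was the highest of its group and add-back library 3 the lowest of its own. PCNA was at 108 ± 4.92 and 116 ± 8.61 CPM and did not pass (adjusted p = 0.126). With the correction 24 were lower and 4 higher, but the changes named here shrank, CDT1 from -1.18 to -0.52, POLD1 from -1.11 to -0.45, E2F1 from -0.66 to -0.17 and RRM2 from 0.43 to 0.27.

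Mitotic genes were higher in 15 and lower in 4 of 34 as tested, but higher in 4 and lower in 11 with the correction, so the list has no stable direction. ANLN (0.37) and NUSAP1 (0.31) were among the higher and CDC20 (-0.47) and PLK1 (-0.38), which drive mitotic exit and entry, among the lower genes. With the correction ANLN was at 0.15, NUSAP1 at 0.12 and CDC20 at -0.28. MKI67, the gene of the proliferation marker Ki-67, was at 501, 488 and 494 CPM untreated and 519.5, 503 and 512 CPM with vehicle (log2 fold change 0.05 ± 0.03, adjusted p = 0.209). TOP2A was at 442 ± 17.3 and 478 ± 15.5 CPM, higher as tested (0.12) and lower with the correction (-0.11). Among G1 regulators, 5 of 17 were higher and 6 lower, with CDK6 (0.38, and 0.17 with the correction) and CDKN1B higher and CCND1 lower. CDKN1A, the p21 gene, was at 9.94 ± 0.701 and 10.7 ± 0.906 CPM (adjusted p = 0.523). Of 23 p53 targets 7 were higher, such as FAS (1.00) and MDM2 (0.34, and 0.15 with the correction), and 4 lower, but upper-quartile scaling gave 7 and 7 and the correction 8 and 8.

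Replication-dependent histone genes, transcribed in S phase, were lower in 43 of 59 tested and higher in 3, with a median of -0.57. H2AC11 was at 89.9, 88.9 and 82.7 CPM untreated and 46.3, 41.4 and 48.0 CPM with vehicle, and H4C14 at 266, 259.6 and 269.6 against 161, 149 and 187 CPM. The summed level of the list was 4960 to 5226 CPM untreated and 3270 to 3847 CPM with vehicle, with no overlap. With the correction 31 were lower and 9 higher. These genes are near-identical copies, so counts of single members are uncertain.

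Cytosolic ribosomal protein genes were higher in 41 of 79 and lower in 13, all by less than 2-fold, with RPL41 at 534 ± 19.1 and 737 ± 10.1 CPM and RPS20 at 522 ± 5.69 and 642 ± 6.79 CPM untreated and with vehicle. The RPS20 log2 fold change was 0.30, and 0.14 with the correction. Mitochondrial ribosomal protein genes leaned the other way, 30 lower and 11 higher of 78, such as MRPS34 (-1.01, and -0.27 with the correction). Ribosome biogenesis genes were lower in 11 of 28 and higher in 3, led by BOP1 (-1.15 ± 0.09) and NHP2 (-0.45 ± 0.04). With the correction BOP1 went to -0.46 and NHP2 to -0.22, and without any 1 of the 6 libraries only 1 gene of the list was higher. Among nuclear genes of oxidative phosphorylation 33 of 75 were higher and 15 lower, while 4 of the 15 were at least 2-fold lower, NDUFS7 (-1.48), NDUFB7 (-1.37), NDUFS8 (-1.11) and ATP5F1D (-1.05). With the correction these were -1.13, -0.54, -0.97 and -0.42, so that only NDUFS7 stayed at least 2-fold lower. Of 13 mitochondrially encoded mRNAs 7 were higher and 2 lower (7 and 4 with the correction). Both mitochondrial ribosomal RNAs, which a kit that removes ribosomal RNA depletes, were also higher, MT-RNR1 at 0.472 ± 0.0738 CPM untreated and 4.75 ± 3.75 CPM with vehicle (3.27 ± 1.09, adjusted p = 0.0180) and MT-RNR2 at 0.334 ± 0.148 and 3.15 ± 1.96 CPM (3.20 ± 0.76, adjusted p = 0.00160). The part of ribosomal RNA removal in the rise of the mRNAs was not tested. MT-CO1 went from 6679, 6542 and 6372 to 10210, 9916 and 9607 CPM and MT-ND2 from 6212, 5258 and 5390 to 4736, 4296 and 4492 CPM, and the sum of the list was 31090 to 34620 CPM untreated and 40480 to 43870 CPM with vehicle. Proteasome subunit genes were higher in 17 of 31 and lower in none, all by small steps such as PSMC6 (0.34, and 0.13 with the correction), but 9 were higher and 4 lower with the correction.

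Lysosome and autophagy genes were higher in 24 of 39 and lower in 8, with a median of 0.19. Their log2 fold changes ran from -2.16 to 2.84, and 1 of the 8 was at least 2-fold lower. The genes named here were all higher. GPNMB, a lysosomal glycoprotein that rises with lysosomal stress, was at 5.95, 5.14 and 7.28 CPM untreated and 47.0, 44.9 and 38.9 CPM with vehicle (log2 fold change 2.84 ± 0.09, adjusted p = 1.25e-14). RRAGD, a GTPase that couples amino acids to mTORC1, was at 1.29, 0.829 and 1.02 against 7.77, 7.63 and 6.40 CPM (2.80 ± 0.18, adjusted p = 2.08e-10). Both are targets of TFEB and MITF factors, and their groups did not overlap. WIPI1, an autophagosome protein, rose by 1.18 ± 0.07, NEU1, a sialidase, by 0.89 ± 0.05, and SQSTM1, the autophagy receptor p62, by 0.42 ± 0.03. With the correction 22 were higher and 3 lower.

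Of the iron genes 7 of 10 were higher and 1 lower. SLC40A1, the iron exporter ferroportin, rose from 38.1, 35.6 and 37.4 to 93.8, 94.7 and 89.2 CPM, and TFRC and FTL, for uptake and storage, rose by 0.28 and 0.32. The metallothionein MT2A, which zinc and glucocorticoids raise, fell from 12.3, 12.2 and 10.5 to 2.74, 2.78 and 4.70 CPM, and SLC30A1, a zinc exporter, from 123 to 76.6 CPM. HSPB1, a small heat shock protein, fell from 269, 262 and 253 to 107, 93.3 and 123 CPM, while HSPA8 (0.28) and HSP90AA1 (0.25) rose slightly. Endoplasmic reticulum chaperone and quality control genes were higher in 12 of 18 and lower in 1, led by DNAJC3 (0.61) and EDEM1 (0.58). Without add-back library 1 or vehicle library 2 this count was 7 of 18. ATF4 and amino acid genes were lower in 14 of 31 and higher in 5, such as CHAC1 (-0.78) and NUPR1 (-0.78), both among the lower. NRF2 targets split, 12 higher and 7 lower of 22, with PGD (0.56) up and GCLC (-0.32) down. With the correction HSPB1 went from -1.28 to -0.61, CHAC1 to -0.27, DNAJC3 to 0.38, TFRC to 0.06, HSPA8 to 0.16 and HSP90AA1 to 0.09, while FTL went to 0.51 and GCLC to -0.50.

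Notch pathway genes were all called, 6 lower and 2 higher of 8. NOTCH1 was at 109, 117 and 104 CPM untreated and 35.4, 34.4 and 47.5 CPM with vehicle, and NOTCH3 at 217, 219 and 204 against 94.0, 92.2 and 106 CPM. HES1, a Notch target, fell from 42.6, 43.9 and 42.4 to 28.1, 28.0 and 35.0 CPM, and the ligand gene JAG1 rose from 2.65, 3.59 and 3.45 to 6.40, 6.57 and 6.54 CPM. In NOTCH1 vehicle library 3 lay nearest to the untreated level, and 4 of the list were lower with the correction, under which NOTCH3 went from -1.14 to -0.63. LEF1, a Wnt effector and target, fell from 14.1, 13.5 and 12.7 to 3.27, 3.58 and 3.41 CPM, as did AXIN2 (-0.80) and ZNRF3 (-0.19), the 3 of 7 Wnt targets that were called. YAP-TEAD targets were lower in 10 of 22 and higher in 3. NT5E, the ectoenzyme CD73, fell from 41.7, 49.2 and 53.1 to 12.5, 11.6 and 12.5 CPM, and TGFB2, a TGF-beta ligand, rose from 12, 10.1 and 12 to 29.3, 25.1 and 28.5 CPM. Cytoskeletal targets of SRF and its MRTF partners were higher in 6 of 13 and lower in none, with VCL (0.89), FHL2 (0.90) and TPM1 (0.79) ahead. The integrin gene ITGB6 rose from 11.3, 13.0 and 12.1 to 39.6, 39.7 and 34.2 CPM and SKIL, a repressor that TGF-beta induces, fell from 214, 228 and 236 to 140.2, 135 and 133 CPM.

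Luminal and epithelial genes were expressed in both groups. AGR2, a secretory pathway gene of luminal cells, rose from 298, 307 and 289 to 769, 783 and 766 CPM (log2 fold change 1.37 ± 0.04, adjusted p = 7.91e-16), and CD24 fell (-0.58 ± 0.05). Luminal genes were higher in 10 and lower in 7 of 19. KRT15, a basal keratin, rose from 17.7, 18.2 and 15.2 to 57.5, 52.8 and 58.3 CPM, while KRT13, of suprabasal squamous cells, fell from 3.30, 3.26 and 3.96 to 0.0653, 0.214 and 0.341 CPM. Junction genes were higher in 9 and lower in 9 of 24 (8 and 4 with the correction), with DSP, the desmosome plaque protein, at 336 ± 2.54 and 503 ± 13.5 CPM and E-cadherin (CDH1) at 22.9 ± 0.376 and 15.2 ± 0.741 CPM untreated and with vehicle. Of 10 mesenchymal genes tested 5 were lower (3 with the correction), among them COL6A1 (-0.79, and -0.25 with the correction), and FBN1 (1.08) was 1 of 2 higher. Solute carriers were higher in 96 and lower in 67 of 258, with SLC12A2, the sodium-potassium-chloride cotransporter, at 165, 163 and 156 CPM untreated and 495, 508 and 488 CPM with vehicle and the glucose transporter SLC2A12 at 27.0, 28.8 and 28.2 against 114, 115 and 99.6 CPM.

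Among noncoding genes, UCA1, a long noncoding RNA of carcinomas, fell from 43.2, 42.6 and 46.1 to 5.03, 4.54 and 5.72 CPM (log2 fold change -3.12 ± 0.11, adjusted p = 2.92e-14). DSCAM-AS1, an estrogen receptor-linked long noncoding RNA of luminal breast cancer, fell from 9.58, 9.50 and 10.2 to 0.522, 1.39 and 0.749 CPM (-3.40 ± 0.21, adjusted p = 9.98e-11). It lies antisense to DSCAM, and reads of the pair cannot be told apart if strand was not used. The pseudogene PKD1P3 also fell (-3.29), but it is nearly identical to PKD1. MIR9-3HG, a host gene of microRNA 9, rose from 3.30, 3.31 and 3.13 to 27.6, 25.0 and 26.1 CPM, SCAT8 rose by 2.69 ± 0.15, and SNORD3D, a multicopy small nucleolar RNA, by 4.24 ± 1.10 with a call that DESeq2 and limma-voom did not make. Host genes of small nucleolar RNAs (SNHG) were lower in 12 of 25 and higher in 1.

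The calls followed the GC content of the transcripts. In the poorest of 4 equal groups of genes by GC 42.5% were higher and 7.31% lower, and in the richest, from 55.5% GC upwards, 7.75% were higher and 52.0% lower. The median log2 fold changes from the poorest to the richest group ran 0.16, 0.10, 0.01 and -0.35. The level of the richest group relative to the poorest, as a log2 deviation from the mean of all 15 libraries, was 0.19 to 0.25 in the add-back libraries, -0.35 to -0.16 with vehicle and -0.09 to 0.01 with LY500307, and it also differed between knockout (0.18 to 0.31) and control libraries (-0.26 to -0.10), both labelled with no treatment. Vehicle library 3 was the nearest of its group to the add-back libraries on this scale, at -0.16. In CLDN3, NOTCH1, CDT1 and BOP1, which fell, vehicle library 3 also lay nearest to the add-back level. In ID1 and SMAD6, also GC-rich genes that fell, it lay farthest from that level. How often either was so over all GC-rich genes was not counted. With smooth GC content and length offsets for each library 8479 genes were called, 3877 higher and 4602 lower. Of the 9381 calls 5979 were made again in the same direction and 262 in the opposite one. The BMP, estrogen, glucocorticoid, cholesterol, interferon and NF-kB lists kept their direction under these offsets, with 0 higher and 9 lower, 4 and 11, 4 and 10, 23 and 0, 21 and 3, and 12 and 1. CLDN3 and PRRT1B, both GC-rich, had log2 fold changes of -1.59 and -1.82 in place of -2.62 and -2.97, and ATOH8, ID3 and ID1 of -6.77, -3.96 and -3.32.

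**Figure D5:**
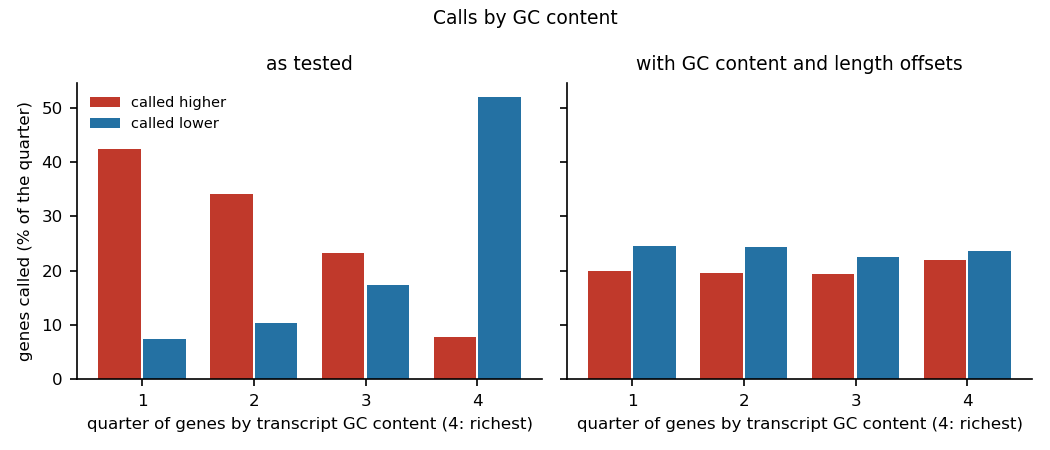
Share of genes called higher (red) and lower (blue) with vehicle, in percent of each of 4 equal groups of genes by transcript GC content (4 is the richest), as tested (left) and with GC content and length offsets (right). As tested the higher share drops from 42.5% to 7.75% and the lower share climbs from 7.31% to 52.0%, and with offsets all shares lie between 19.3% and 24.6%.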

How the data were processed

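Total RNA was prepared with a stranded kit that removes ribosomal RNA, per the labels' protocols. The authors deposited expected counts for each gene from RSEM, not normalised, from reads handled with FastQC, Trim Galore and GSNAP on GRCh38, per the submitters' processing notes. Versions, annotation release, filters and use of strand are not given in the sources used here. A deposited table per transcript was not used.

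Expected counts were rounded. Symbols came from a names table (60463 of 60664 identifiers) and positions, types, GC content and length from GENCODE 29. In R 4.3.3 with edgeR 4.0.16, genes were filtered with filterByExpr by group and scaled by TMM, and a model of all 15 libraries was tested with the two-sided quasi-likelihood F test, Benjamini-Hochberg adjusted over 19516 genes. The biological coefficient of variation was 4.99%. The labels do not say that replicates came from separate cultures, so p-values measure the spread between these libraries, which may be technical. Squared count differences between replicates were 2.05 to 4.87 times counting error. Log2 CPM used a prior count of 2. On simulated counts the test recovered 50.5% of genes changed 1.5-fold and 69.5% of those changed 2-fold, 95 genes each among 18796, with 7 false calls. Few genes were changed in the simulation and no GC trend was set, unlike in the data, so these shares do not carry over to this comparison.

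The comparison, 56 gene lists and naming rule were chosen with earlier results of these data known. Named were ESR2, the 15 largest rises and falls among called protein-coding genes without overlap and at a mean log2 CPM of 1 or more, the 5 largest CPM changes each way, the 3 largest noncoding changes each way, and up to 5 called members with the smallest p per list. Further genes were named after their values were seen, namely list members that fill out a count, MT-RNR1, MT-RNR2, SMAD7, SMAD9, BAMBI, ID2, GREB1, TFF1, RET, CTSD, DUSP1, TSC22D3, IFI44, IFIT3, CXCL10, CCL20, HLA-DRA, SREBF1, AREG, EREG, IGF1R, MKI67, TOP2A, PCNA and CDKN1A. Alternatives were DESeq2 1.42.0, RLE and upper-quartile factors, voom in limma 3.58.1, no filter, a CPM minimum of 1 in any 3 libraries, a fit of these 6 libraries by themselves, a replicate block, GC content and length offsets from smooth fits (mgcv 1.9.3), and leaving out each library. Promoter windows came from RefSeq. Motifs of other lists were searched as well. The SMAD box GGCGCC was in 1 of 9 BMP list windows (11.1%, and 19.0% of all). The xenobiotic element TTGCGTG was in 0 of 6 aryl hydrocarbon receptor windows and the glucocorticoid element in 0 of 16. The FOXO site was in 2 of 19 (10.5%, and 3.41% of all). The E2F site was in 20 of 33 S-phase windows (60.6%, and 6.90%) and TTTGAA in 18 of 28 mitotic windows (64.3%, and 15.4%). Some genes that the naming rule picks are not reported here.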

Additional observations from a re-analysis of the deposited data

How the results depend on the processing

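Under the 9 other settings run on all 6 libraries the number of genes higher with vehicle ranged from 3877 to 5214 and the number lower from 3510 to 4793, all within 1.5 times the values reported. Leaving out each library gave 4142 to 4506 higher and 3876 to 4428 lower, and ESR2 log2 fold changes of 0.38 to 0.49. With the GC content and length offsets ESR2 had a smaller log2 fold change, 0.33. The share of higher calls was 55.0% as tested, 51.9% with RLE factors, 48.1% with upper-quartile factors and 45.7% with GC content and length offsets. No call was made in the opposite direction except under the offsets, which turned 262. Among the named genes the offsets reversed SNHG7 (log2 fold change 0.14), KRT7 (0.078), RPPH1 (0.35), RN7SL2 (0.38), MRPL41 (0.33), IREB2 (-0.024), SREBF1 (0.076), CDKN2A (0.027), TM7SF2 (0.32), SOCS4 (-0.036), SOCS6 (-0.050), TOP2A (-0.11) and MKI67 (-0.059, not called as tested), and the cause was not tested. In 50 further cases over 25 named genes a call was lost under a setting. With the replicate number as a block 9123 genes were called, 5021 higher and 4102 lower, and ESR2 had a log2 fold change of 0.46. Deviations from the group mean in same-numbered vehicle and add-back libraries had correlations of -0.01 to 0.01. Whether such libraries shared a culture or batch was not tested. Genes near the filter on low counts, such as CXCL10 and IFI44, rest on few reads.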
